A study of Homo sapiens with 2 samples.

Results

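Kinesins are motor proteins that walk along or take apart microtubules, and the centromere proteins (CENP) build the platform on each chromosome to which spindle microtubules attach. They were examined on 2 expression arrays, by taking every probe set that the platform annotation pairs with exactly 1 symbol made of KIF or KIFC and a digit, or CENP and 1 letter. This gave 124 probe sets of 63 genes, out of 19775 genes with such a probe set: 14 mitotic kinesins, 27 other kinesins, 18 CENP genes and 4 antisense transcripts named after kinesin genes. The kinesins were divided by their known roles, and CENPE, a kinesin by sequence, was kept with the CENP genes.

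The cells were C33-A, an established cervical carcinoma line of epithelial morphology that grows attached to the dish. One derivative (the CA9 cells or CA9 line) was stably transfected with the full-length human cDNA of CA9, the membrane-bound carbonic anhydrase IX, in pcDNA3.0. The other (the vector cells or vector line) carried the empty vector. Both were grown in RPMI with 10% serum, and RNA was taken on day 4 after seeding. There was 1 array per line, so the transgene, the line, the culture and the array cannot be told apart, and no p-value or standard error can be given. The labels do not say whether either line is 1 clone or a pool, and the level of CA9 itself was not analysed here, since the annotation used pairs no probe set with it.

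In dividing cells the transcripts of mitotic kinesins and kinetochore proteins are made mainly in late S phase, G2 and mitosis. They are repressed in resting cells through the DREAM complex, which binds CHR elements in promoters. NF-Y binds CCAAT boxes, which often lie in the same promoters. Transport kinesins carry vesicles, organelles and ciliary cargo and are not tied to the cell cycle in this way. In a bulk culture, fewer dividing cells and less RNA per dividing cell cannot be told apart.

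CHR letters were frequent in promoter windows of mitotic kinesins and infrequent in those of other kinesins. RefSeq promoter windows of GRCh38.p14, running from 250 bases before to 50 after a transcript start, were matched to 48 of the 59 protein-coding members. Windows of genes with several starts were counted singly. The letters searched on both strands were TTTGAA (the CHR element) and its variant TTCGAA, and CCAAT, and no 2 matches overlapped in a member window. TTTGAA or TTCGAA lay in 11 of 15 windows of mitotic kinesins (73.3%), 6 of 15 of CENP genes and 2 of 27 of other kinesins (7.41%), beside 16.4% of all 35116 windows. Both that element and CCAAT lay in 9 of the 15 windows of mitotic kinesins, 5 of the 15 of CENP genes and 2 of the 27 of other kinesins, beside 6.38% of all windows.

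The 7 stretches shown here run from 100 bases before the start to the first 30 transcribed bases, and capitals mark the searched letters, which read TTCAAA or ATTGG where the match is on the opposite strand. KIF11, KIF23 and KIF4A are shown because they hold both elements side by side. KIF20A has CCAAT matches only, and CENPA has its CCAAT matches farther upstream than the stretch shown. KIF13A and CENPT, the kinesin and the CENP gene farthest below and above 0 in the comparison of the lines, have neither element. The positions are chr10:92593030-92593159 (+ strand) for KIF11, chr15:69414249-69414378 (+ strand) for KIF23, chrX:70290004-70290133 (+ strand) for KIF4A and chr5:138179012-138179141 (+ strand) for KIF20A. Those of the others are chr2:26785956-26786085 (+ strand) for CENPA, chr6:17987606-17987735 (- strand) for KIF13A and chr16:67847664-67847793 (- strand) for CENPT.
KIF11: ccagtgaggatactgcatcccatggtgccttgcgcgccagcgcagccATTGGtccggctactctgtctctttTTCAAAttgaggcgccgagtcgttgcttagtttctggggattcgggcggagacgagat
KIF23: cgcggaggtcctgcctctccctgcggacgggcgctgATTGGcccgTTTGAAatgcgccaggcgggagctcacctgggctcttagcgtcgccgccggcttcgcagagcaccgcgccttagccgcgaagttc
KIF4A: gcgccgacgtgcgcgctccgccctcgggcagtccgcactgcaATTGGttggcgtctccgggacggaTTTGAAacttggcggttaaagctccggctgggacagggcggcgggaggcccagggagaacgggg
KIF20A: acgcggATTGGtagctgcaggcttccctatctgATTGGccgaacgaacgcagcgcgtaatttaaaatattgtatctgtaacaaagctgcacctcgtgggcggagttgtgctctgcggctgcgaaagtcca
CENPA: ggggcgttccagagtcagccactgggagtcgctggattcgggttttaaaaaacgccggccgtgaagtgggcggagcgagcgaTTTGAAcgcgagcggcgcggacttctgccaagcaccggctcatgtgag
KIF13A: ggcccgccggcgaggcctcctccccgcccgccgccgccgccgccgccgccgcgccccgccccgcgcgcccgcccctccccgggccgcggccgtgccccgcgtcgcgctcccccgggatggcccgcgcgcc
CENPT: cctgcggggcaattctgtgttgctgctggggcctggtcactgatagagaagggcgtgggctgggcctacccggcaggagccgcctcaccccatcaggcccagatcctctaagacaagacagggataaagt

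In KIF11 the CHR match began 28 bases before the start and the CCAAT match 53 bases before it. In KIF23 the distances were 55 and 64 bases, and in KIF4A 34 and 58 bases. KIF18A had its CHR match 10 bases before the start and KIF15 35 bases before it, whereas in KIF14, KIF18B and KIFC1 it lay 1, 2 and 4 bases after it. KIF22 had the variant 27 bases before its first start. KIF2A, KIF2B and KIF2C, all microtubule-depolymerising kinesins, had none of the searched letters. Among other kinesins, KIF5B had a TTTGAA match 140 bases before its start and KIF24 the variant 1 base after it. A match describes letters in a window, and binding of a factor was not measured.

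**Figure D1:**
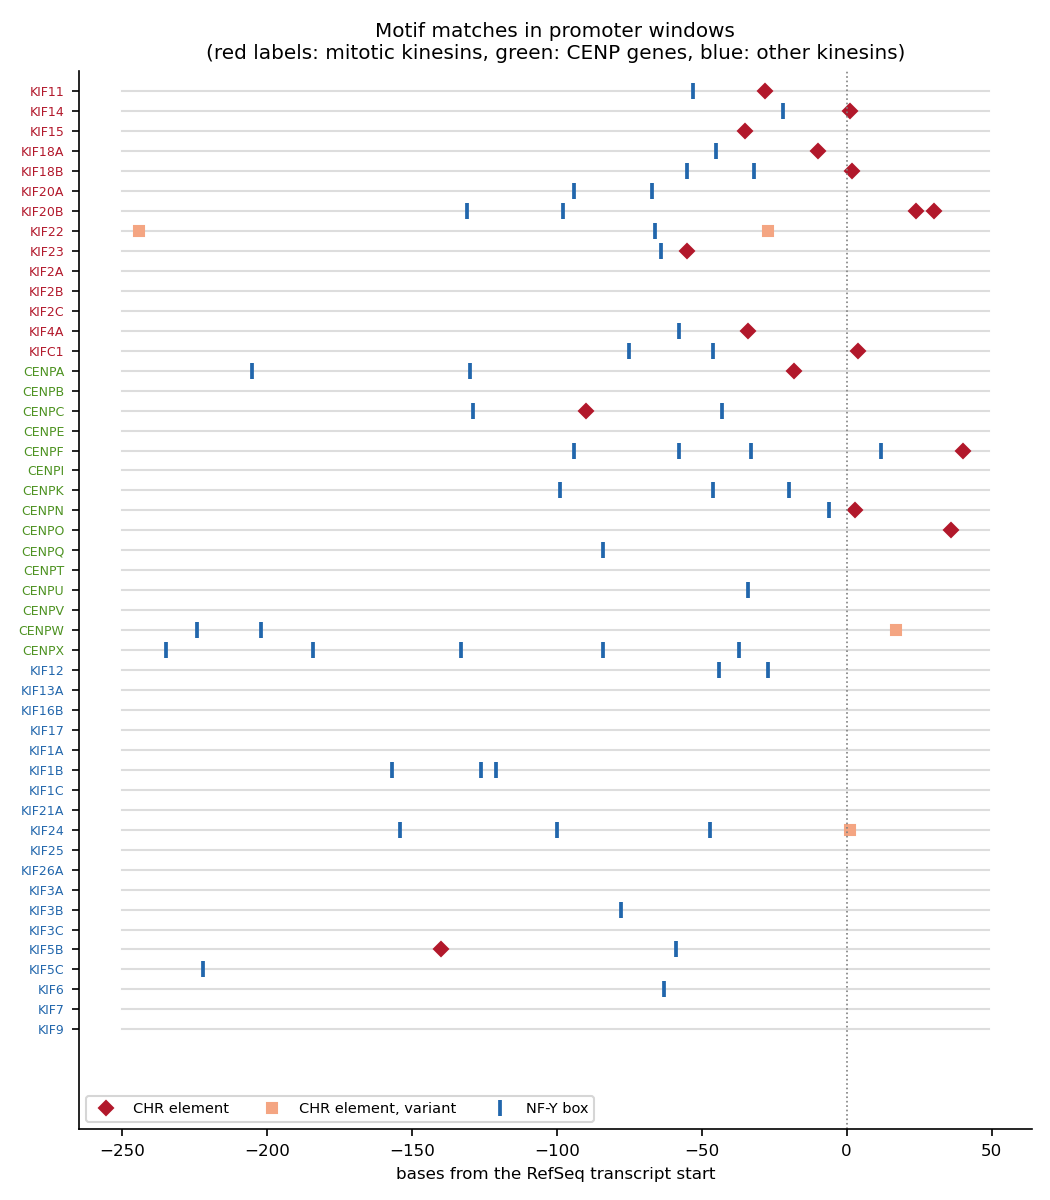
Positions of CHR element matches (diamonds), their variant (squares) and NF-Y box (CCAAT) matches (bars) in the promoter window of each gene, in bases from the RefSeq transcript start. Windows of genes with several starts are drawn on one line. CHR element matches or their variant lie in 11 of 15 windows of mitotic kinesins and in 2 of 27 of other kinesins.

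The values are RMA intensities on a linear scale, 1 per probe set and array, and a difference is the log2 intensity in CA9 cells minus that in vector cells. A gene was represented by its brightest probe set, taken on the mean of both log2 intensities. It was called measurable if the higher array lay above the floor, an intensity of 40.8, the median over both arrays without control probe sets. Of the 59 protein-coding members 54 were measurable: 13 mitotic kinesins, 17 CENP genes and 24 other kinesins. KIF2B, KIF6, KIF24, KIF27 and CENPQ lay below the floor on both arrays. Intensities of different probe sets are not comparable, so only the arrays are set against each other. Probe sets of 1 gene share the RNA and the array, and their log2 differences had a pooled SD of 0.31 around the gene's mean over 6186 genes and of 0.25 over the members.

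Without control probe sets, the CA9 array had a median intensity of 41.8 and the vector array one of 40.02. The log2 signal of the 3' minus the 5' control probe set for ACTB was 0.67 in CA9 cells against 0.73 in vector cells, and for GAPDH 0.06 in CA9 cells against 0.04 in vector cells. The hybridisation spike-ins were higher on the CA9 array in 17 of 18 probe sets, by a median log2 difference of 0.41. Differences depended on intensity: over 13823 measurable genes their Spearman correlation with mean log2 intensity was -0.24, a description across genes that share the same 2 arrays. The loess trend of all probe sets stood at 0.06 at a mean log2 intensity of 6 and at -0.11 at 8. For each group and list, the median with this trend removed is given beside the deposited one.

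**Figure D2:**
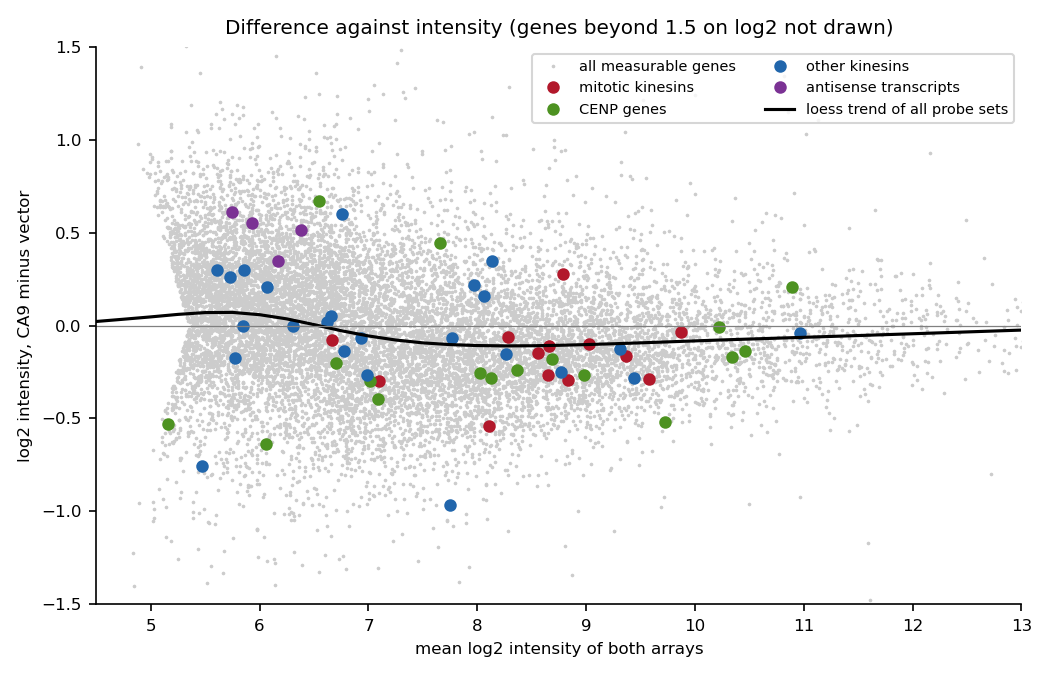
Log2 difference (CA9 minus vector) of each measurable gene against its mean log2 intensity, with the members in colour and the loess trend of all probe sets as a line. The trend runs at -0.11 at a mean log2 intensity of 8, where many mitotic kinesins and CENP genes lie.

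No kinesin or CENP gene differed 2-fold between the lines, where 1.03% of all measurable genes did (0.492% higher and 0.543% lower). At 1.5-fold, against the floor where the lower array lay below it, 4 of the 54 protein-coding members stood apart (8.46% of all measurable genes did). Higher in CA9 cells were the kinesin gene KIF12 and CENPT (4.15% of all measurable genes were higher), and lower were the kinesin gene KIF13A and CENPI (4.3% were lower). The share of members past this fold is near the background. Most mitotic kinesins and CENP genes had a small difference below 0, with medians of -0.15 and -0.24, beside -0.03 for all measurable genes. With the loess trend removed the medians were -0.06 and -0.14, beside 0.0034. A median below 0 was not particular to these groups, as dynein and dynactin genes were at -0.19 (-0.09 with the trend removed).

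**Figure D3:**
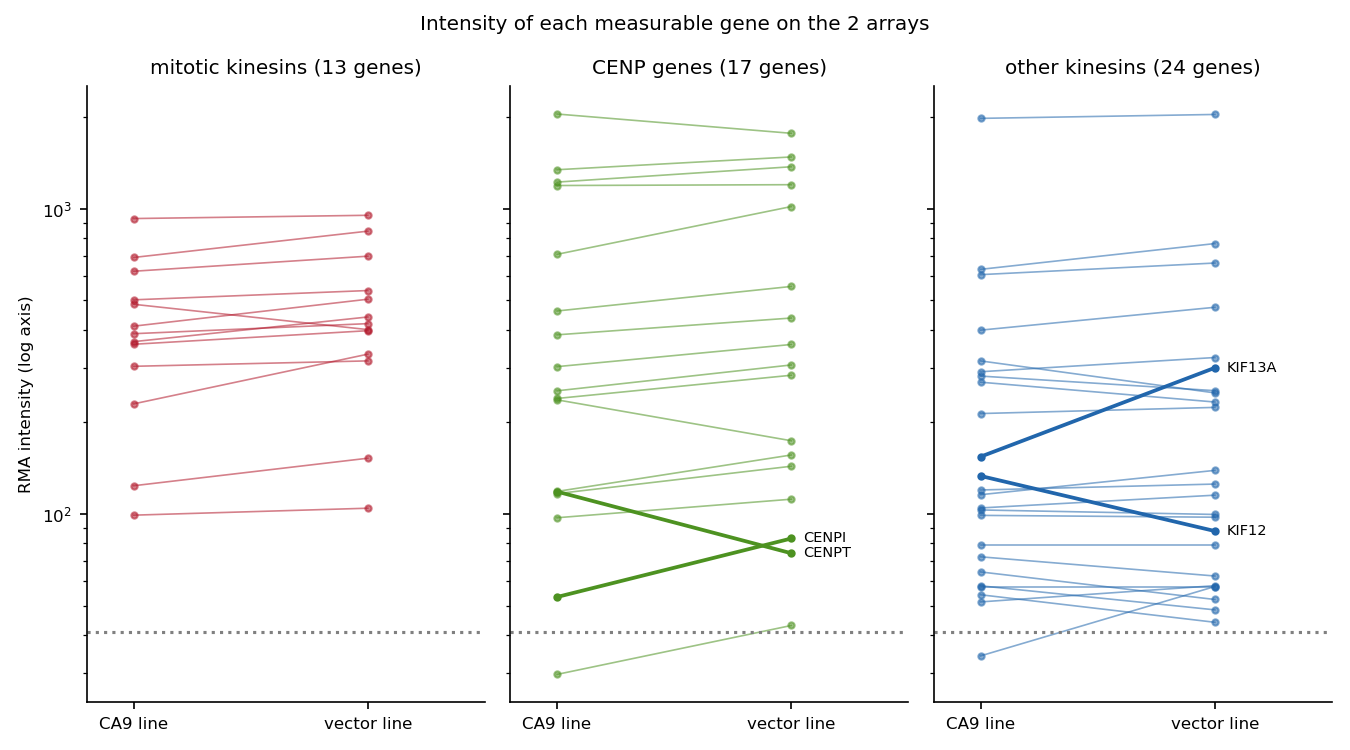
RMA intensity (log axis) of each measurable mitotic kinesin, CENP gene and other kinesin on the array of the CA9 line (left) and of the vector line (right), with a line per gene and the floor of 40.8 dotted. Thick named lines are the genes past 1.5-fold, and most thin lines of the mitotic kinesins and CENP genes end slightly higher on the vector array.

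Of the 13 measurable mitotic kinesins 12 had a difference below 0, where 53.0% of all measurable genes did. None reached 1.5-fold, and the differences ran from -0.54 to 0.28. The share of 53.0% is not matched for intensity. With the floor raised to the 75th percentile, 11 of 12 lay below 0, beside 5310 of 8516 measurable genes. With the loess trend removed, 9 of the 13 lay below 0, beside 6847 of 13801 measurable genes. The median was then -0.06, beside 0.0034 for all measurable genes.

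Among the kinesins that push spindle poles apart, KIF15, which can stand in for Eg5 in keeping the spindle bipolar, had an intensity of 229 in CA9 cells and 333 in vector cells. Its difference of -0.54 (1.46-fold lower) was the farthest below 0 of this group, and it was -0.43 with the trend removed. KIF11, which encodes Eg5 itself, had 502 in CA9 cells and 539 in vector cells, a difference of -0.10. KIFC1, a minus-end motor that clusters spindle poles, had 359 in CA9 cells against 398 in vector cells, at -0.15. KIF15 and KIF11 each rest on 1 probe set. KIF15 lay farther below 0 than KIF11, though short of 1.5-fold, and the contrast between these genes was not tested.

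The motors of the central spindle and of cytokinesis did not all lie on one side of 0. KIF20B had an intensity of 123 in CA9 cells and 152 in vector cells, a difference of -0.30. KIF23, a subunit of centralspindlin, had 692 in CA9 cells against 844 in vector cells, at -0.29, and its second probe set read 38.5 in CA9 cells, below the floor, and 45.8 in vector cells. KIF20A, which brings the passenger complex to the central spindle, had 623 in CA9 cells and 698 in vector cells, at -0.16. KIF14, a midbody kinesin, was the only one of the 13 above 0, at 486 in CA9 cells against 401 in vector cells. Its second probe set ran the other way, at 259 in CA9 cells against 319 in vector cells (-0.30), so the direction of KIF14 depends on the probe set.

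Chromosome-arm and microtubule-end motors lay closer to 0 or were lower in both of their probe sets. KIF22, a chromokinesin that pushes chromosome arms, had 412 in CA9 cells and 505 in vector cells (-0.29), and -0.40 in its second probe set. KIF4A, the other measured chromokinesin, had 389 in CA9 cells against 420 in vector cells, at -0.11. KIF2A, a depolymerase at spindle poles, had 366 in CA9 cells and 441 in vector cells (-0.27), and -0.46 in its second probe set. KIF2C, the depolymerase that corrects attachments at centromeres, had 928 in CA9 cells against 951 in vector cells (-0.04), and -0.12 in its second probe set. KIF18A and KIF18B, which restrain microtubule growth at plus ends, were at -0.08 and -0.06, KIF18B with 304 in CA9 cells and 317 in vector cells. In all, 17 of the 18 probe sets of mitotic kinesins above the floor lay below 0, beside 53.0% of all 24174 single-gene probe sets above it. That share is not matched for intensity either.

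**Figure D4:**
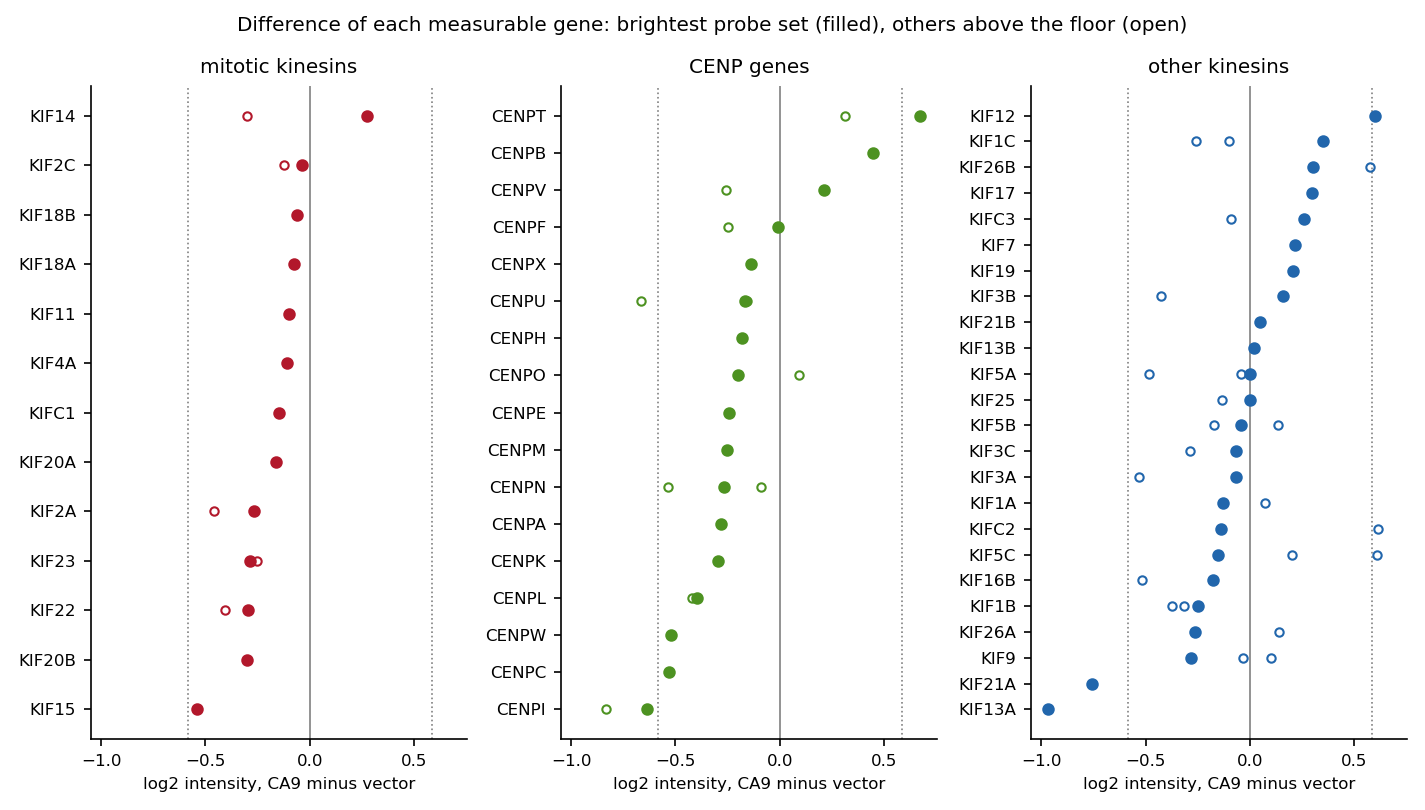
Log2 difference (CA9 minus vector) of each measurable gene in its brightest probe set (filled) and in its other probe sets above the floor (open), with dotted lines at 1.5-fold. Mitotic kinesins run from -0.54 (KIF15) to 0.28 (KIF14), CENP genes from -0.64 (CENPI) to 0.67 (CENPT) and other kinesins from -0.97 (KIF13A) to 0.60 (KIF12).

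Of the 17 measurable CENP genes 14 had a difference below 0, where 53.0% of all measurable genes did. The median of -0.24 was -0.14 with the loess trend removed, with 13 of the 17 below 0, beside 6847 of 13801 measurable genes. Over their probe sets above the floor, 22 of 27 lay below 0, beside 53.0% of all single-gene probe sets above it. These shares are not matched for intensity. Members of the constitutive centromere network are CENP proteins that stay at centromeres through the cell cycle. Of those measurable (CENPC, CENPH, CENPI, CENPK, CENPL, CENPM, CENPN, CENPO, CENPT, CENPU, CENPW and CENPX) only CENPT lay above 0 in its brightest probe set.

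CENPI, of the CENP-H, -I, -K and -M subcomplex, had an intensity of 53.3 in CA9 cells and 82.9 in vector cells, 1.56-fold lower. Its second probe set above the floor was lower too, at 41.7 in CA9 cells against 74.1 in vector cells, a difference of -0.83. The other members of that subcomplex differed less: CENPK was at -0.30, CENPM at -0.25 and CENPH at -0.18. CENPL, which with CENPN reads the CENP-A nucleosome, had 118 in CA9 cells and 156 in vector cells (-0.40), and -0.42 in its second probe set. CENPN was at -0.27, and its other probe sets above the floor were at -0.09 and -0.54.

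The histone-fold members CENPT, CENPW and CENPX lay on both sides of 0. CENPT, which links the centromere to the NDC80 complex and pairs with CENP-W, had 118 in CA9 cells and 74.2 in vector cells, 1.59-fold higher. Its second probe set was at 58.8 in CA9 cells against 47.4 in vector cells, a difference of 0.31. CENPW had 708 in CA9 cells and 1016 in vector cells, a difference of -0.52 (1.43-fold lower). The transcripts of these partners thus lay on opposite sides of 0. CENPX, which forms a histone-fold pair with CENP-S and also acts in the Fanconi anaemia pathway, had 1341 in CA9 cells against 1477 in vector cells, at -0.14. CENPS itself is matched by a probe set that the annotation pairs with a second gene, which read 234 in CA9 cells and 240 in vector cells. CENPU had 1222 in CA9 cells and 1372 in vector cells (-0.17), and -0.16 in its next brightest probe set. Its dimmest was at least 1.55-fold lower, as CA9 cells read 39.9, below the floor. CENPO was at -0.20 in one and 0.09 in the other.

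The proteins nearest to the chromatin also differed in direction. CENPA, the histone H3 variant that marks centromeres, had an intensity of 253 in CA9 cells and 307 in vector cells, a difference of -0.28. A probe set that the annotation pairs with both CENPA and SLC35F6 was at -0.24. The brightest probe sets of CENPA, CENPH and CENPL are of a kind (_x_at) that can detect unrelated transcripts. For CENPA and CENPH it is the only single-gene probe set. CENPB, which binds a short box in alpha satellite DNA, had 236 in CA9 cells and 173 in vector cells, at 0.45 (1.36-fold higher). CENPC, which joins CENP-A nucleosomes to the rest of the kinetochore, had 29.7 in CA9 cells, below the floor, and 43.0 in vector cells, just above it, so its difference of -0.53 is not settled. CENPB and CENPT were the only genes of the 17 above 0 in every probe set above the floor.

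The large outer proteins and CENPV completed the group. CENPE, the kinesin that carries chromosomes to the metaphase plate, had 303 in CA9 cells and 359 in vector cells (-0.24). CENPF, a kinetochore protein widely used as a mark of G2 cells, had 1191 in CA9 cells against 1198 in vector cells (-0.01), and -0.25 in a second, dimmer probe set. CENPV had 2042 in CA9 cells and 1766 in vector cells (0.21), but 1272 in CA9 cells against 1522 in vector cells in its second probe set (-0.26), so its direction is not settled.

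The 24 measurable other kinesins were spread around 0, with 12 below 0, 10 above it and 2 at exactly equal values, and a median of -0.02 (0.0031 with the trend removed). Those at both ends of the range came from different branches of the family. KIF13A, a motor of endosomal and mannose 6-phosphate receptor vesicles, had an intensity of 154 in CA9 cells and 301 in vector cells, 1.96-fold lower. Its 5 other probe sets lay below the floor on both arrays. KIF21A, which restrains microtubule growth in neurons, had 34.2 in CA9 cells, below the floor, and 57.7 in vector cells, and was at least 1.41-fold lower. KIF12 had 133 in CA9 cells and 87.7 in vector cells, 1.52-fold higher, in its single probe set.

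Apart from KIF1B, the conventional kinesins and the vesicle motors were close to equal in the brightest probe set or split between probe sets. KIF5B, the conventional kinesin heavy chain of most tissues, had 1976 in CA9 cells and 2036 in vector cells (-0.04), and 0.13 and -0.17 in its other probe sets. KIF5C, its neuronal relative, was at -0.15, 0.20 and 0.61 in its 3 probe sets. KIF5A had equal values of 57.6 on both arrays in its brightest probe set and -0.04 in the next. Its dimmest read 30.3 in CA9 cells, below the floor, and 42.5 in vector cells, just above it. KIF1A, which carries synaptic vesicle precursors, had 608 in CA9 cells and 663 in vector cells (-0.13), and 0.07 in its second probe set. KIF1B, a motor of mitochondria and synaptic vesicle precursors, was lower in all 3 probe sets above the floor, at -0.25, -0.37 and -0.31. KIF1C had 317 in CA9 cells and 249 in vector cells (0.35), but -0.26 and -0.10 in its other probe sets.

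The ciliary and signalling kinesins gave differences of both signs, all short of 1.5-fold in the brightest probe set. KIF3A and KIF3B, the motor subunits of heterotrimeric kinesin-2, were at -0.07 and 0.16, with second probe sets at -0.53 and -0.42. KIF7, which acts at the cilium tip in Hedgehog signalling, had 270 in CA9 cells and 232 in vector cells (0.22). KIF9 had 632 in CA9 cells against 768 in vector cells (-0.28), and -0.03, -0.28 and 0.10 in its other probe sets, of which the brighter are of a kind (_x_at) that can detect unrelated transcripts. KIF26B was above 0 in both probe sets above the floor, at 64.4 in CA9 cells against 52.3 in vector cells in the brighter (0.30). In the other it was at least 1.40-fold higher, since vector cells read 38.4, below the floor. KIF17, at 0.30, and KIFC3, at 0.26, were near the floor on both arrays. KIFC2 was at -0.14 in its brighter probe set and 0.61 (1.53-fold higher) in the other. KIF16B, a motor of early endosomes, was at -0.18, and its second probe set read 29.8 in CA9 cells, below the floor, and 42.8 in vector cells, just above it. KIF26A was at -0.26 and 0.14. In their brightest probe sets KIF3C (-0.06), KIF13B (0.02), KIF21B (0.05) and KIF19 (0.21) were also short of 1.5-fold. The second probe set of KIF3C was at -0.29. KIF25 had equal values of 79.2 on both arrays in its brightest probe set, also of the _x_at kind, and was at -0.13 in the other.

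Over the protein-coding members, 29 genes had 2 or more probe sets above the floor. In 13 of them all lay below 0, in 2 all lay above 0, and in 14 they did not all lie on one side. KIF2A, KIF22, KIF23, CENPI, CENPL, CENPN and CENPU were among those with all below 0, and CENPT and KIF26B were those with all above. The same counts were not made over all 6186 genes with 2 or more such probe sets, nor with the trend removed. Of all 24174 single-gene probe sets above the floor 53.0% lay below 0, so the counts of members have no matching background.

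All 4 antisense transcripts had higher intensities in CA9 cells, with differences from 0.35 to 0.61, in probe sets of low intensity. KIF25-AS1 had 66.3 in CA9 cells and 43.5 in vector cells, 1.53-fold higher. KIF1C-AS1 had 73.8 in CA9 cells against 50.3 in vector cells (0.55) and KIF9-AS1 99.5 in CA9 cells against 69.7 in vector cells (0.51). KIF23-AS1 had 81.0 in CA9 cells and 63.8 in vector cells (0.35). In their brightest probe sets the genes they are named after were at 0.00 for KIF25, 0.35 for KIF1C, -0.28 for KIF9 and -0.29 for KIF23. With the loess trend removed, the antisense transcripts ran from 0.30 to 0.54, so that KIF25-AS1 fell short of 1.5-fold. Each rests on 1 probe set above the floor.

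Most genes of the fixed kinetochore, checkpoint and passenger lists also had small differences below 0, and with the trend removed their medians lay closer to 0. Of 13 outer kinetochore genes 11 lay below 0, with a median of -0.13. With the trend removed 9 lay below 0 and the median was -0.033. MIS12, at 161 in CA9 cells against 233 in vector cells (-0.53), was farthest from 0, and the NDC80 complex genes NDC80, NUF2, SPC24 and SPC25 ran from -0.38 to -0.13. Of 6 measurable CENP-A loading genes 4 lay below 0, HJURP, the CENP-A chaperone, among them at -0.28 and OIP5 at -0.38. Their median was -0.14, and -0.078 with the trend removed, when 3 of 6 lay below 0. Of 10 spindle checkpoint genes 8 lay below 0, with ZW10 at -0.46 and SPDL1 at -0.40, while MAD1L1 was at 0.35. Their median was -0.13, and -0.048 with the trend removed, when 7 lay below 0. The 9 passenger complex genes and mitotic kinases had a median of -0.18 (-0.12 with the trend removed), with AURKB at -0.27 and PLK1 at 0.15. No gene of these 4 lists reached 1.5-fold, where 8.46% of all measurable genes did. Beside the counts of these and the later lists, 53.0% of all measurable genes lay below 0. With the trend removed 6847 of 13801 measurable genes did.

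Of 14 spindle microtubule proteins 9 lay below 0, with a median of -0.05. With the trend removed 6 lay below 0 and the median was 0.047. CKAP2, a spindle-associated protein, was the only one past 1.5-fold, at 129 in CA9 cells against 256 in vector cells, 1.98-fold lower. HAUS1, of the augmin complex, was at 0.44. The proliferation markers were not all on one side: MKI67 had 865 in CA9 cells and 660 in vector cells (0.39), while TOP2A was at -0.13, PCNA at -0.09 and MCM2 at -0.26.

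Partners of the transport kinesins showed no common direction. Of 15 kinesin light chains and adaptors 7 lay above 0 and 8 below, with a median of -0.01 (0.099 with the trend removed). MAPK8IP1, a JIP scaffold that links kinesin-1 to cargo, had 78.6 in CA9 cells and 48.4 in vector cells, 1.62-fold higher. TRAK2, an adaptor of mitochondrial transport, had 145 in CA9 cells against 234 in vector cells, 1.62-fold lower. Of 20 measurable dynein and dynactin genes, the minus-end transport machinery, 16 lay below 0, with a median of -0.19. With the trend removed 13 lay below 0 and the median was -0.09. The adaptor BICD1 was 1.98-fold lower at 54.9 in CA9 cells against 108 in vector cells. The 16 measurable tubulins had a median of 0.12 (0.16 with the trend removed), with 11 above 0 and TUBB4A the highest at 0.48.

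**Figure D5:**
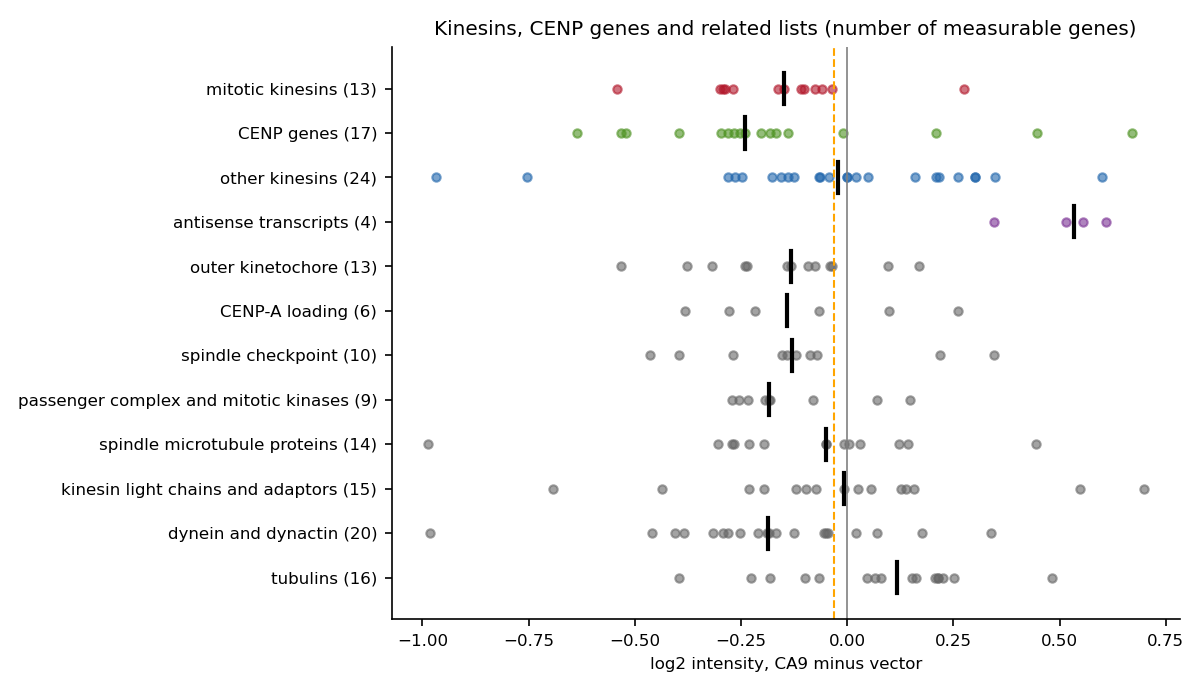
Log2 difference (CA9 minus vector) of each measurable gene (points) in the member groups and the related lists, with the median of each as a bar and that of all measurable genes (-0.03) dashed. Medians run from -0.24 for CENP genes to 0.12 for tubulins and 0.53 for the 4 antisense transcripts.

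The difference between the lines was set beside the promoter elements of the members. The 15 measurable members with a CHR match or its variant and a CCAAT match had a median difference of -0.15, with 14 of 15 below 0, and the 29 other members with a promoter window also had a median of -0.15, with 20 below 0. Over all 11001 measurable genes with a promoter window 54.9% lay below 0, with a median of -0.05 (-0.0039 with the trend removed). Over the 712 of them with that pair of elements 59.4% lay below 0, with a median of -0.07 (-0.037 with the trend removed). With the trend removed, 10 of the 15 members with the pair and 19 of the 29 without it lay below 0. Their medians were -0.06 and -0.07, and 5563 of all 11001 genes lay below 0. A difference between members with and without the pair was not tested.

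Of 5 epithelial markers 3 were measurable, and all were dim in both lines. KRT8 had 101 in CA9 cells and 68.3 in vector cells and KRT18 had 80.2 in CA9 cells against 56.1 in vector cells, while EPCAM and CDH1 lay below the floor on both arrays. The endothelial markers CDH5 and KDR lay below the floor on both arrays, whereas PECAM1 read 84.0 in CA9 cells and 64.0 in vector cells, and VWF 56.2 in CA9 cells and 55.9 in vector cells. Of the blood markers CD3E lay below the floor on both arrays, and HBB read 71.3 in CA9 cells and 78.9 in vector cells. CD14 read 57.1 in CA9 cells against 36.9, below the floor, in vector cells, and PTPRC was at 30.1 in CA9 cells, below the floor, against 58.1 in vector cells. All 5 fibroblast markers were measurable, and the collagen gene COL3A1 read 2538 in CA9 cells and 2339 in vector cells. COL1A1 read 164 in CA9 cells and 170 in vector cells, and THY1 198 in CA9 cells and 135 in vector cells. DCN read 78.2 on both arrays. PDGFRB was near the floor, at 45.3 in CA9 cells and 40.3, below it, in vector cells. The part of these in the results was not tested.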

How the data were processed

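Per the labels' protocols, biotinylated cRNA from 5 µg of total RNA was hybridised to Affymetrix arrays. The deposited values are intensities, for which the submitters' processing notes name RMA as the authors' method. Its version, settings and probe definitions are not given in the sources used here. The values are on a linear scale, from 6.79 to 17091, as read from the values, and were put on log2 without a pseudocount. Such summaries compress differences of dim probe sets.

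Gene names came from the platform annotation, in which 41097 of 54675 probe sets have 1 symbol. Entrez identifiers of 41043 of these matched RefSeq, which gave current symbols and promoter windows. Lists came from known roles, and the members and lists were chosen with earlier results of these data known. Every member could be named. Intensities are given for those past 1.5-fold, the 3 highest, lowest and brightest of each group, and some others chosen after their values were seen. With 1 array per line no test was run. The number of arrays limits the precision. Fold calls were tested on simulated data. Alternatives were the probe set, the floor and the normalization. Python 3.11.15, numpy 2.4.6, pandas 2.3.3, statsmodels 0.14.6 and matplotlib 3.10.9 were used.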

Additional observations from a re-analysis of the deposited data

How the results depend on the processing

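Under all 8 alternatives the medians of the mitotic kinesins (-0.21 to -0.06) and of the CENP genes (-0.30 to -0.14) stayed below 0. Both were lowest with equal array medians, where the median of all measurable genes was -0.095. With the floor at the 75th percentile they were -0.16 and -0.20, beside -0.10 for all measurable genes. The median of the other kinesins was 0.12 without probe sets ending in _x_at or _s_at and 0.0031 with the loess trend removed. That of the light chains and adaptors was 0.024 without such probe sets, 0.089 after quantile normalization and 0.099 with the trend removed. That of the spindle microtubule proteins was 0.025 and 0.047 under the last 2 settings, and that of all measurable genes 0.0022 and 0.0034.

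Averaging the probe sets of a gene left 579 genes past 1.5-fold in place of 1169, with 0 CENP genes and 1 other kinesin, KIF12. KIF13A then had a difference of -0.43, its 5 dim probe sets included. A floor at the 75th percentile left 487 genes, with 0 CENP genes and 1 other kinesin, KIF13A. With equal array medians, 1 mitotic kinesin (KIF15) passed 1.5-fold, 1 other kinesin remained (KIF13A), and 1 member, KIF13A, passed 2-fold. The share of higher genes among all calls was 49.1% as reported, 32.8% with equal medians and 34.1% at the higher floor. It was 55.2% after quantile normalization, 54.6% with the trend removed, 54.7% with averaged probe sets and 54.3% with no floor. Without probe sets ending in _x_at or _s_at, CENPU passed 1.5-fold lower (at least 1.55-fold against the floor), and KIF5C (0.61) and KIFC2 (0.61) higher. KIF25-AS1 fell short of 1.5-fold with equal medians (0.55), after quantile normalization (0.55), with the trend removed (0.54) and with averaged probe sets (0.36). The cause of these shifts was not tested. No paired analysis was possible because there is 1 array per line.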

Other observations

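Differences were also set beside gene length, promoter GC and mean log2 intensity. Over the 17 measurable CENP genes the Spearman correlation of the log2 difference (CA9 minus vector) with the RefSeq length of the gene was -0.61, over the 24 other kinesins it was -0.32 and over the 13 mitotic kinesins -0.08. Over 13805 measurable genes it was -0.19. With promoter GC it was 0.42 over 14 CENP genes, -0.33 over 17 other kinesins and -0.20 over 13 mitotic kinesins. With mean log2 intensity it was 0.42 over the CENP genes, -0.26 over the other kinesins and 0.20 over the mitotic kinesins. The value of -0.61 is thus the farthest from 0 of several, and it was not tested. These correlations are across genes that share the same 2 arrays. CENPB, the shortest of the CENP genes at 2890 bases, was at 0.45, whereas CENPW, at 143206 bases, was at -0.52, and KIF13A, at 228510 bases, was at -0.97. KIF26B, at 554448 bases, was at 0.30.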
